A study of Rattus norvegicus with 8 samples.

Results

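Spermatocyte-enriched rat testis cells were compared with spermatogonia that had been made to differentiate in culture, gene by gene, from 4 of the 6 RNA libraries of the study (8 samples in all). The libraries were chosen by their labels, 2 a side, and every gene of the count table was used. The first group, called DSg, held differentiating spermatogonia: a Brown Norway rat spermatogonial stem cell line, grown on laminin and kept for 120 h in SD medium, which holds all-trans-retinoic acid and neuregulin-1, with RNA taken at day 7 on laminin and day 5 in SD medium. The other group, called Spc, held primary Brown Norway germ cells from testis cell culture. These cells had not bound to plastic, collagen-I or laminin, were kept for 2.5 days in DMEM and Ham's F12 medium with 10% fetal bovine serum, and carry the label of enriched primary spermatocytes. The groups therefore differed in source (a line against primary cells), medium, serum, growth factors, retinoic acid and selection as well as in stage, and these differences cannot be told apart. The labels do not say whether the 2 libraries of a group came from separate cultures or animals, so p-values measure only the spread between these libraries, which may be technical.

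Spermatogonia are the dividing germ cells at the base of the seminiferous tubule. Retinoic acid, made and destroyed locally by enzymes of the testis, and ligands of the ERBB receptors such as neuregulin-1 move them from a self-renewing state into a KIT-positive differentiating state and on to meiosis. Spermatocytes then copy their DNA a last time, cut it with SPO11, pair their chromosomes along the synaptonemal complex and, at the pachytene stage, turn on a large program of genes that serve meiosis, the sperm tail, the acrosome and the energy supply of sperm. The study as a whole asks how gene networks of spermatogonia tie to the metabolism of glutathione, pentose phosphates and cysteine.

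Levels below are CPM, each gene's count relative to the total of its library, scaled by TMM factors, a correction for library composition, after leaving out 2 ribosomal RNA genes. The 4 libraries held from 2327326 to 5304178 counts without these genes, and 1 count was worth 0.202 to 0.422 CPM. The DSg libraries were less alike than the Spc libraries: from gene to gene, the gap between the pair on the log2 scale had an SD of 0.80 in DSg and 0.37 in Spc. DSg 2 had counts on 96.7% of 1045 olfactory receptor genes, against 23.3% in DSg 1 and 54.6% and 64.1% in Spc. The sum over these genes was 1461 CPM in DSg 2, against 142 CPM in DSg 1 and 229 and 317 CPM in Spc. Of these genes 95% lay under 2.88 CPM in DSg 2 and under 0.607 to 0.901 CPM in the other 3 libraries.

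Of 11792 genes tested with edgeR, 2441 (20.7%) were higher in Spc and 2184 (18.5%) were lower, 39.2% in all, at a Benjamini-Hochberg adjusted p under 0.05. For each of these genes both Spc libraries lay on the same side of both DSg libraries. With 2 libraries a side this is common. Over all genes tested, called or not, Spc lay wholly above DSg for 4326 and wholly below it for 4221. A change of at least 2-fold was fitted for 2131 of the higher and 1886 of the lower genes, and the median log2 fold change over all genes tested was -0.02. The fit had 2 residual degrees of freedom, and the number of calls moved with single libraries: 4294 higher and 4083 lower genes without DSg 1, 3572 and 3274 without DSg 2, 1471 and 564 without Spc 1, and 1532 and 581 without Spc 2. With total-count scaling, which shifted log2 fold changes by -0.23, the split was 1982 higher and 2855 lower. Upper quartile scaling shifted them by -0.18 and gave 2087 higher and 2704 lower. No call of the 4625 changed direction in any setting tried. For 2054 genes (17.4%) the 95% interval of the log2 fold change lay within ±1. Counts of list members below are to be read against the 20.7% higher and 18.5% lower of all genes.

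**Figure D1:**
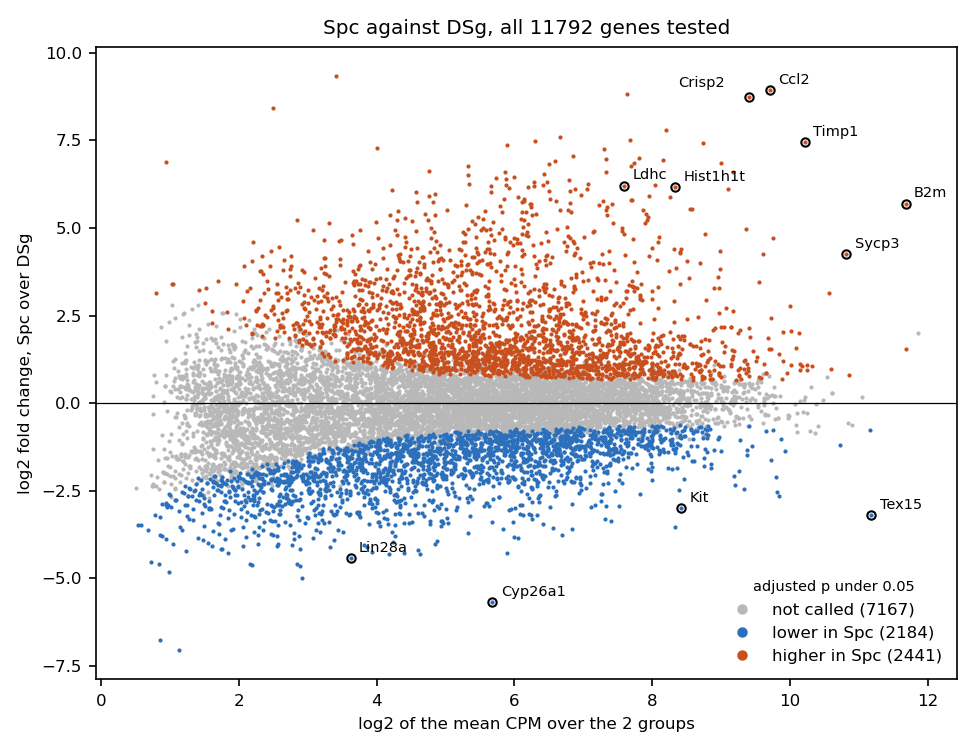
Fitted log2 fold change of Spc over DSg (vertical axis) against the log2 of the mean level in CPM (horizontal axis) for the 11792 genes tested. Orange points are the 2441 genes higher in Spc, blue points the 2184 lower and grey points the 7167 not called. Of the named genes, spermatocyte genes (Sycp3, Hist1h1t, Ldhc, Crisp2) and genes of other functions (Ccl2, Timp1, B2m) lay far above the line. The spermatogonial genes Kit and Lin28a, the retinoic acid enzyme gene Cyp26a1 and the meiotic gene Tex15 lay far below it.

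The labels held against their defining markers. Sycp3, a protein of the chromosome axis in meiosis, was at 215 and 146 CPM in DSg and 3236 and 3631 CPM in Spc (log2 fold change 4.25 ± 0.31 (SE), edgeR adjusted p = 5.98e-05). Hist1h1t, the linker histone of pachytene spermatocytes, was at 11.4 and 6.62 CPM in DSg and 552 and 721 CPM in Spc (log2 fold change 6.18 ± 0.36 (SE), edgeR adjusted p = 3.65e-05). Both Spc libraries were far above both DSg libraries for these genes. Kit, the receptor tyrosine kinase of differentiating spermatogonia, was at 623 and 600.3 CPM in DSg and 75.6 and 77.5 CPM in Spc (log2 fold change -3.00 ± 0.24 (SE), edgeR adjusted p = 7.22e-05). Lin28a, an RNA-binding protein of early spermatogonia, was at 22.8 and 24.5 CPM in DSg and 1.01 and 1.13 CPM in Spc (log2 fold change -4.43 ± 0.49 (SE), edgeR adjusted p = 0.000341). Kit remained measurable in Spc, whereas Lin28a fell to about 1 CPM there. In bulk RNA, fewer cells of a type and less RNA per cell cannot be told apart.

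Among spermatocyte markers, Spo11, Piwil1, Ldhc, Hspa2 and Sycp1 were higher in Spc, with the call of Sycp1 lost in a fit of 6 libraries (adjusted p = 0.0936), and Ccna1, a cyclin of late spermatocytes, was at 13.5 and 12.4 CPM in DSg and 7.28 and 5.63 CPM in Spc (edgeR adjusted p = 0.109, called without DSg 2 (adjusted p = 0.0302)). Among spermatogonial markers, Gfra1, Zbtb16, Dmrt1, Uchl1 and Sohlh1 were lower in Spc. The call of Dmrt1 was lost without Spc 2 (adjusted p = 0.273), and that of Uchl1 was lost without Spc 1 (adjusted p = 0.125) and without Spc 2 (0.353). Of the genes that mark germ cells of any stage, Dazl was at 1853 and 958 CPM in DSg and 842 and 744 CPM in Spc (edgeR adjusted p = 0.0763, called without DSg 2 (adjusted p = 0.000196), with DESeq2 (0.0357), with total-count scaling (0.0231) and with upper quartile factors (0.0269)). Ddx4, the germ cell RNA helicase, was at 346 and 217 CPM in DSg and 462 and 471 CPM in Spc (edgeR adjusted p = 0.0643, called without DSg 1 (adjusted p = 1.09e-08), with DESeq2 (0.0496), with limma-voom (0.0307) and with no filter (0.0373)). Neither passed the threshold in the main test. Genes of elongating spermatids were near 0 in all 4 libraries: Prm1, a protamine, was at 0 and 0.288 CPM in DSg and 0.202 and 0 CPM in Spc, and Tnp2, a transition protein, at 0 and 1.15 CPM in DSg and 0.202 and 0.225 CPM in Spc. Both were too low to be tested. Acr, a spermatid marker that is also in the acrosome list, was higher in Spc. It was at 0 and 4.03 CPM in DSg and 34.0 and 43.0 CPM in Spc (log2 fold change 4.05 ± 0.71 (SE), edgeR adjusted p = 0.0030). Its call was lost with DESeq2 (adjusted p = 0.0825). Sall4 and Stra8 were not analysed here.

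**Figure D2:**
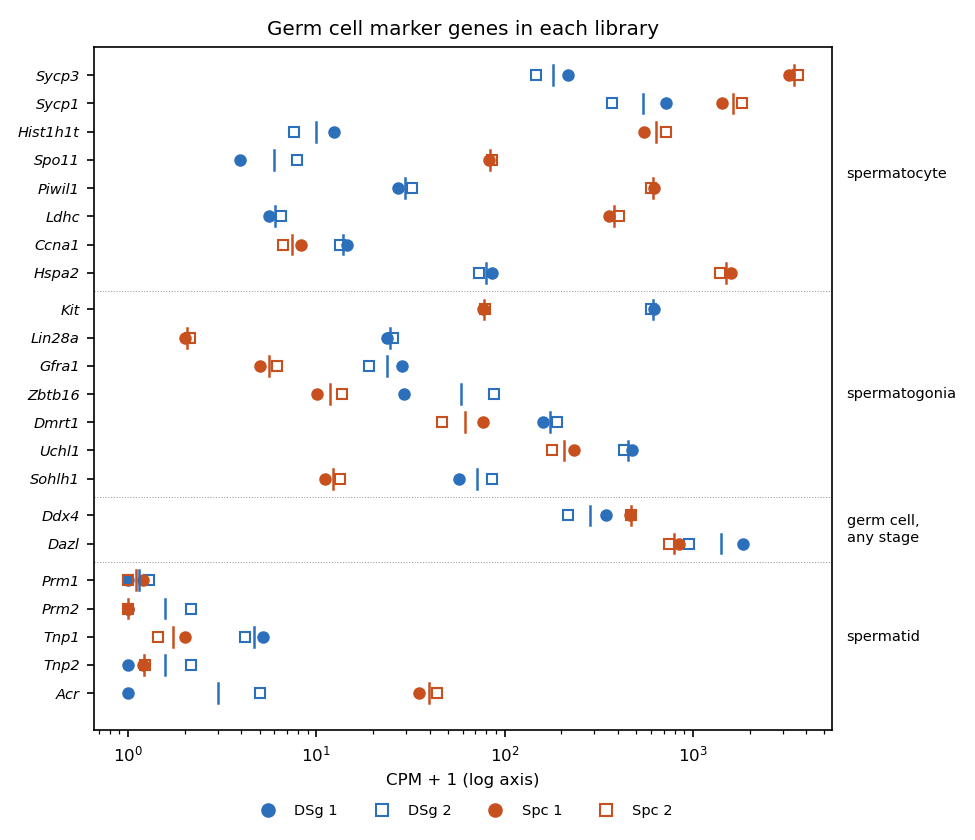
Level of each germ cell marker gene (vertical axis) in CPM + 1 on a log axis, with DSg 1 and Spc 1 as filled circles, DSg 2 and Spc 2 as open squares and the group means as vertical bars. Spermatocyte markers other than Ccna1 lie to the right in Spc, spermatogonial markers to the left, and the protamine genes Prm1 and Prm2 near 1 in every library. The spermatid marker Acr lies to the right in Spc.

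Most markers of Sertoli cells and of myoid cells and fibroblasts were also higher in Spc, and their part in the results below was not tested. Of 23 tested genes of the Sertoli cell list, 16 were higher in Spc and 0 lower (0 with DESeq2, 0 with limma-voom and 1 at an unadjusted p under 0.05; 17 and 1 without DSg 1 and 19 and 1 without DSg 2), and the summed level of the list was 1298 and 747 CPM in DSg and 4445 and 4293 CPM in Spc. Tf, which encodes transferrin, was at 10.5 and 9.78 CPM in DSg and 598 and 609 CPM in Spc (log2 fold change 5.89 ± 0.28 (SE), edgeR adjusted p = 2.58e-05). Cldn11, the claudin of the Sertoli cell barrier, was at 9.27 and 6.91 CPM in DSg and 124 and 118 CPM in Spc (3.92 ± 0.31). Wt1, a transcription factor of somatic gonad cells, was at 1.26 and 7.19 CPM in DSg and 54.8 and 47.8 CPM in Spc (3.48 ± 0.54). Of 31 tested genes of peritubular myoid cells and fibroblasts, 22 were higher and 3 lower, with a summed level of 1884 and 1384 CPM in DSg and 11145 and 11873 CPM in Spc. Dcn, the matrix proteoglycan decorin, was at 3.37 and 5.47 CPM in DSg and 552 and 577 CPM in Spc (6.94 ± 0.34). Col3a1, a fibrillar collagen, was at 38.8 and 41.4 CPM in DSg and 1362 and 1182 CPM in Spc (4.98 ± 0.27). Col1a1 did not pass the test, at 192 and 132 CPM in DSg and 146 and 178 CPM in Spc (edgeR adjusted p = 0.992, 95% interval -0.61 to 0.62; called without DSg 1 (adjusted p = 0.0276)).

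Other somatic lists moved less evenly. Of 6 tested Leydig cell genes, 3 were higher and 2 lower (3 and 5 without DSg 1, 1 and 0 without Spc 1 and 3 and 0 without Spc 2), with a summed level of 119 and 144 CPM in DSg and 294 and 301 CPM in Spc. Star, the cholesterol carrier of steroid-making cells, was at 2.53 and 2.01 CPM in DSg and 163 and 175 CPM in Spc (6.22 ± 0.35), while the steroid enzyme genes Cyp17a1 (1.21 and 0.225 CPM in Spc) and Hsd3b1 (1.42 and 3.15 CPM) and the hormone gene Insl3 (0.202 and 0 CPM) were near 0. Cyp11a1, another steroid enzyme gene of the list, was called lower in Spc. For macrophages and leukocytes 6 of 21 genes were higher and 2 lower (8 and 5 without DSg 1, 16 and 1 without DSg 2, 3 and 1 without Spc 1 and 3 and 1 without Spc 2). Their summed level was 89.4 and 158 CPM in DSg and 1942 and 1827 CPM in Spc, and in Spc most of it was the chemokine Ccl2, at 2.95 and 3.74 CPM in DSg and 1744 and 1606 CPM in Spc (8.93 ± 0.35). Some leukocyte markers were low in Spc, with Ptprc at 9.303 and 8.79, Csf1r at 7.48 and 11.04 and C1qa at 4.65 and 3.83 CPM. Ptprc, Csf1r and C1qa were not called in the main test, nor was the marker Tyrobp. Cd68, another marker of these cells, was called higher in Spc. The log2 fold change of Tyrobp, which had no count in DSg 1, was 1.82 in the main fit and 7.18 without DSg 2. Ptprc was called without DSg 2 (adjusted p = 0.00592), Csf1r called without DSg 2 (adjusted p = 0.00218) and C1qa called without DSg 2 (adjusted p = 0.0154). Of 11 tested endothelial genes 1 was higher and 3 were lower (1 and 6 without DSg 1, 3 and 3 without DSg 2, 1 and 1 without Spc 1 and 1 and 1 without Spc 2), with a summed level of 247 and 325 CPM in DSg and 342 and 372 CPM in Spc. Of 4 red blood cell genes 3 were higher and 1 lower, with 2 and 0 without Spc 1 and 2 and 0 without Spc 2 (Hba1 at 0 and 1.44 CPM in DSg and 89.99 and 70.1 CPM in Spc). Hba1 and Hba2 had the same counts in Spc and cannot be told apart.

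**Figure D3:**
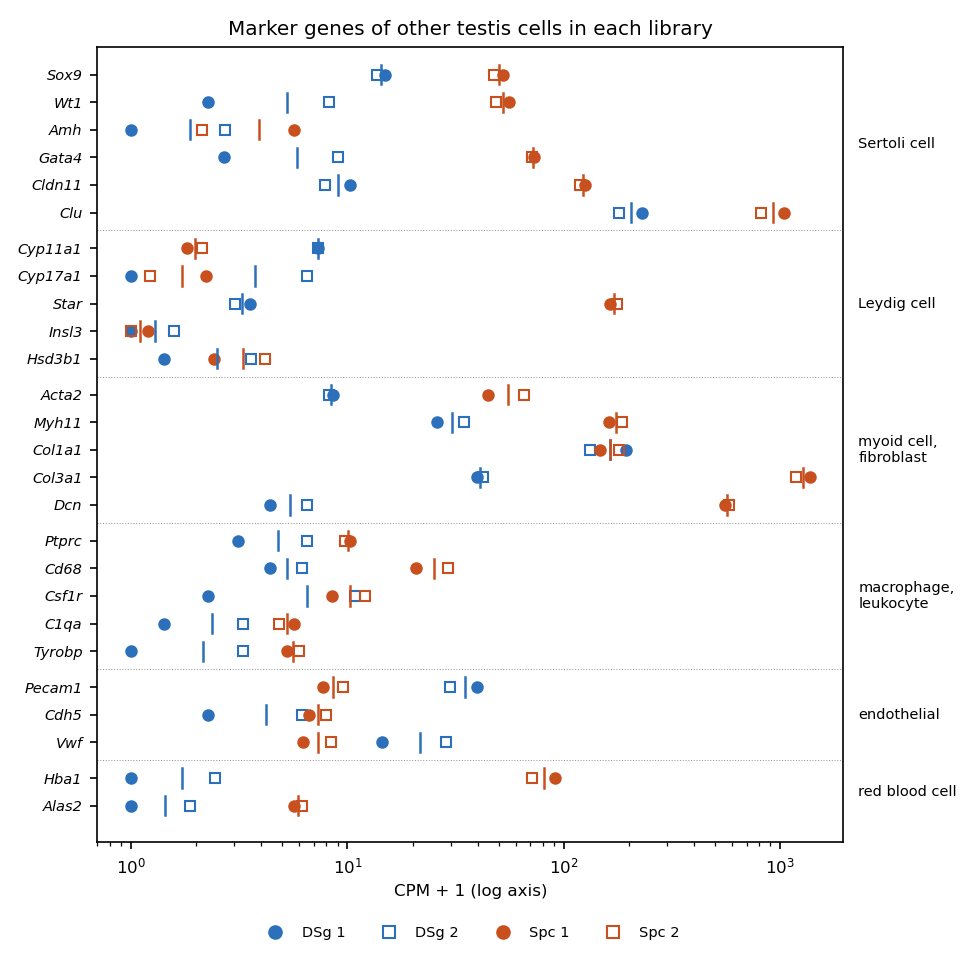
Level of marker genes of Sertoli, Leydig, myoid and fibroblast, leukocyte, endothelial and red blood cells (vertical axis) in CPM + 1 on a log axis, with symbols as for the germ cell markers and vertical bars at the group means. Dcn, Col3a1, Clu, Cldn11, Star and Hba1 lie to the right in Spc, Col1a1 overlaps between the groups, and Pecam1, Vwf and Cyp11a1 lie to the left in Spc. The endothelial marker Cdh5, which was not called, lies to the right in Spc.

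The 12 genes with the largest fitted increase, among those with at least 20 CPM in the higher group, were Ccl2, Crisp2, Ifitm3, Testin, Fam229b, Ccl7, Timp1, tGap1, Spata4, S100a11, Ednrb and Dmrtc2. The place of Dmrtc2, a germ cell gene of the doublesex family, among them depends on the prior count of the fit. It had no count in DSg and was at 26.7 and 15.996 CPM in Spc, at least 42.2-fold higher when DSg is set at 3 counts over both libraries. Crisp2, a protein of the acrosome and sperm tail, was at 0.843 and 4.89 CPM in DSg and 1352 and 1367 CPM in Spc (log2 fold change 8.74 ± 0.52 (SE), edgeR adjusted p = 3.65e-05). Spata4, which carries a testis-linked name, was at 0.422 and 0.863 CPM in DSg and 129 and 107 CPM in Spc (7.38 ± 0.45). The rest of these genes include the chemokines Ccl2 and Ccl7, the protease inhibitor Timp1, at 11.4 and 15.5 CPM in DSg and 2083 and 2669 CPM in Spc (7.44 ± 0.35), and Testin, at 0 and 1.73 CPM in DSg and 179.99 and 223 CPM in Spc (7.60 ± 0.58). At the other end were Cyp26a1, Lin28a, Nell1, Dlk1, Ppp2r2c, Smagp, Rarb, Tbx1, Kirrel2, Pik3ap1, Cd80 and Pdzd4. Dlk1, an imprinted gene for a membrane protein of the Notch ligand type, was at 119 and 106 CPM in DSg and 6.47 and 4.96 CPM in Spc (log2 fold change -4.29 ± 0.32 (SE), edgeR adjusted p = 6.24e-05). All 24 kept their calls with each library left out in turn.

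Genes of the meiotic chromosome axis and of recombination were higher in Spc in 50.0% of the tested members of both lists, against 20.7% of all genes. In the list for the synaptonemal complex and meiotic cohesin, 8 of 16 tested genes were higher and 3 lower (7 and 1 without Spc 2), with a median log2 fold change of 0.82 (1.40 without DSg 1). Sycp2, a partner of SYCP3 in the axis, was at 153 and 99.9 CPM in DSg and 1314 and 1437 CPM in Spc (log2 fold change 3.44 ± 0.30 (SE), edgeR adjusted p = 0.000107). Hormad1, which marks unsynapsed axes, was at 101 and 45.2 CPM in DSg and 506 and 439 CPM in Spc (2.70 ± 0.38). Syce2, of the central element, was at 50.2 and 56.1 CPM in DSg and 198 and 184 CPM in Spc (1.84 ± 0.25). Stag3, a cohesin subunit of meiosis, was at 414 and 344 CPM in DSg and 1540.2 and 1544 CPM in Spc (2.02 ± 0.24). For all these genes the Spc libraries lay close together and above both DSg libraries. Syce3 (95% interval -0.82 to 0.74) and Rec8 (95% interval -0.35 to 0.93), by contrast, were not called. Tex15, a gene of meiotic recombination and transposon silencing, went the other way, at 4293 and 4094 CPM in DSg and 408 and 502 CPM in Spc (log2 fold change -3.20 ± 0.27 (SE), edgeR adjusted p = 9.14e-05). Trip13, an ATPase that strips HORMAD proteins from the axis, was at 109 and 67.1 CPM in DSg and 25.3 and 14.4 CPM in Spc (-2.14 ± 0.38), a call lost without Spc 2 (adjusted p = 0.0552).

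In the small list for telomere attachment and synapsis control 4 of 7 genes were higher and 0 lower (1 with DESeq2, 0 with limma-voom and 1 at an unadjusted p under 0.05; 5 and 1 without DSg 2). In the recombination list 11 of 22 tested genes were higher and 2 lower (11 and 5 without DSg 2, 11 and 0 without Spc 1 and 11 and 0 without Spc 2), with a median of 0.94 (1.45 without DSg 1). Spo11, the enzyme that cuts DNA to start recombination, was at 2.95 and 6.91 CPM in DSg and 81.3 and 84.9 CPM in Spc (log2 fold change 4.01 ± 0.40 (SE), edgeR adjusted p = 0.000204). Prdm9, the histone methyltransferase that sets where cuts fall, was at 22.3 and 33.96 CPM in DSg and 144 and 165 CPM in Spc (2.45 ± 0.30), and was measurable in DSg. Spata22, a single-strand DNA-binding partner of MEIOB, was at 2.11 and 0.863 CPM in DSg and 134 and 117 CPM in Spc (log2 fold change 6.47 ± 0.43 (SE), edgeR adjusted p = 5.15e-05). Cntd1, a cyclin-like protein of crossover sites, was at 14.8 and 17.6 CPM in DSg and 239 and 277 CPM in Spc (3.99 ± 0.28). Mcmdc2, of the MCM family, was at 21.5 and 25.6 CPM in DSg and 173 and 205 CPM in Spc (3.00 ± 0.28). Msh5, a MutS family protein of meiotic crossovers, was at 7.59 and 17.3 CPM in DSg and 81.1 and 68.3 CPM in Spc (2.55 ± 0.39). Dmc1, the recombinase of meiosis, was at 85.99 and 39.7 CPM in DSg and 247 and 285 CPM in Spc (2.09 ± 0.36). Mei4, which helps SPO11 cut, was at 16.4 and 16.98 CPM in DSg and 4.45 and 5.41 CPM in Spc, a call lost without Spc 1 (adjusted p = 0.21) and without Spc 2 (0.12). Brca1 was at 342 and 332 CPM in DSg and 159 and 190.2 CPM in Spc, a call lost without Spc 1 (adjusted p = 0.505), without Spc 2 (0.291) and in a fit of 6 libraries (0.0589).

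Genes of the pachytene program were mostly higher in Spc. Of 34 tested, 25 were higher and 2 lower (23 and 0 without Spc 1 and 23 and 0 without Spc 2), with a median log2 fold change of 3.20. The summed level of the list was 1047 and 947 CPM in DSg and 10441 and 10503 CPM in Spc. Ldhc, the lactate dehydrogenase of sperm, was at 4.64 and 5.47 CPM in DSg and 357 and 404 CPM in Spc (log2 fold change 6.21 ± 0.31 (SE), edgeR adjusted p = 3.0e-05). Hspa2, a chaperone of spermatocytes that acts with CDK1, was at 84.3 and 72.2 CPM in DSg and 1586 and 1400.0 CPM in Spc (4.26 ± 0.27). Ybx2, which binds and stores messenger RNA in germ cells, was at 59.01 and 66.8 CPM in DSg and 1595 and 1742 CPM in Spc (4.73 ± 0.27). Tcp11 was at 8.85 and 14.96 CPM in DSg and 506 and 458 CPM in Spc (5.31 ± 0.33). In each case DSg was low but above 0. The lower genes were Plk1 and Cdc25c, which drive entry into division. Plk1 was at 119 and 108 CPM in DSg and 37.8 and 37.6 CPM in Spc (-1.59 ± 0.26), a call lost without Spc 1 (adjusted p = 0.117) and without Spc 2 (0.112). Cdc25c was at 63.6 and 47.2 CPM in DSg and 28.5 and 29.5 CPM in Spc, a call lost without DSg 1 (adjusted p = 0.068), without Spc 1 (0.491), without Spc 2 (0.434), with DESeq2 (0.0535), in a fit of 6 libraries (0.0882) and with no filter (0.0649). Mybl1, the transcription factor A-MYB of spermatocytes, was at 25.3 and 8.35 CPM in DSg and 256 and 278 CPM in Spc (log2 fold change 4.04 ± 0.46 (SE), edgeR adjusted p = 0.000398). Spdya, which activates CDK2 at telomeres, was at 40.9 and 37.4 CPM in DSg and 369 and 409.6 CPM in Spc (3.32 ± 0.25).

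Genes of later stages were higher in part. In the list of spermatid and sperm nuclear proteins, 13 of 33 genes in the table passed the filter on low counts, so the tested genes are a selected part of the list. Of these 7 were higher and 0 lower (0 with DESeq2, 0 with limma-voom and 1 at an unadjusted p under 0.05; 9 and 2 without DSg 1 and 9 and 1 without DSg 2). Crem, a transcription factor of the spermatid program, was at 66.6 and 39.1 CPM in DSg and 245 and 262 CPM in Spc (log2 fold change 2.27 ± 0.31 (SE), edgeR adjusted p = 0.000857). Brdt, a testis bromodomain protein, was at 50.6 and 31.7 CPM in DSg and 409.5 and 384 CPM in Spc (3.28 ± 0.30). Tnp1, a transition protein of elongating spermatids, was at 4.22 and 3.17 CPM in DSg and 1.01 and 0.451 CPM in Spc and was not called (edgeR adjusted p = 0.0577, called without DSg 2 (adjusted p = 0.0253)). Among acrosome genes 7 of 15 were higher and 2 lower (7 and 4 without DSg 1, 4 and 1 without Spc 1 and 4 and 1 without Spc 2). Zpbp, a protein of the acrosome matrix, was at 24.4 and 12.9 CPM in DSg and 109 and 144 CPM in Spc (2.78 ± 0.36). Clgn, the chaperone calmegin, was at 59.4 and 40.6 CPM in DSg and 471 and 513 CPM in Spc (3.30 ± 0.28). Spaca1, a membrane protein of the acrosome, was lower, at 57.3 and 23.02 CPM in DSg and 10.1 and 11.3 CPM in Spc (-1.89 ± 0.46, edgeR adjusted p = 0.0121).

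Among the lists with at least 10 tested genes, that of the sperm tail had the largest share of higher genes. Of 54 tested genes of the axoneme and tail, 42 (77.8%) were higher in Spc and 1 lower (46 and 3 without DSg 1), with a median log2 fold change of 2.51. Drc1, of the complex that links dyneins to their neighbours, was at 1.69 and 4.89 CPM in DSg and 178 and 205 CPM in Spc (log2 fold change 5.76 ± 0.42 (SE), edgeR adjusted p = 6.24e-05). Dnaaf1, which helps assemble dynein arms, was at 8.43 and 13.5 CPM in DSg and 498 and 447 CPM in Spc (5.40 ± 0.32). Zmynd10, another dynein assembly factor, was at 1.26 and 5.76 CPM in DSg and 240.1 and 286 CPM in Spc (6.10 ± 0.48). Tekt1, a filament protein of the tail, was at 5.901 and 6.62 CPM in DSg and 102 and 107 CPM in Spc (4.05 ± 0.31). Catsperg1, a subunit of the sperm calcium channel, was at 9.69 and 16.1 CPM in DSg and 352 and 394 CPM in Spc (4.82 ± 0.32). Odf2, of the outer dense fibers and of centrioles, started from a higher level, at 267 and 220.1 CPM in DSg and 885 and 1063 CPM in Spc (2.00 ± 0.25). Spag6 was higher too, but a near-copy gene shares its name, so its counts are uncertain. Efhc2 was the exception, at 182 and 84.6 CPM in DSg and 13.3 and 15.996 CPM in Spc (log2 fold change -3.18 ± 0.41 (SE), edgeR adjusted p = 0.000693).

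Genes for intraflagellar transport, the rail system that builds cilia and tails, were higher by less. Of 35 tested, 24 (68.6%) were higher and 0 lower (0 with DESeq2, 0 with limma-voom and 0 at an unadjusted p under 0.05; 15 and 0 without Spc 2), with a median of 1.39. Bbs1, of the BBSome cargo complex, was at 18.5 and 32.2 CPM in DSg and 298 and 292 CPM in Spc (log2 fold change 3.52 ± 0.32 (SE), edgeR adjusted p = 0.000133). Dync2li1, a chain of the dynein that returns cargo, was at 8.43 and 9.78 CPM in DSg and 81.5 and 123 CPM in Spc (3.48 ± 0.34). Ift122, of its cargo train, was at 56.5 and 52.95 CPM in DSg and 251 and 281 CPM in Spc (2.28 ± 0.24). These 3 genes had measurable levels in DSg and, like every called gene, did not overlap between groups. Of the transcription factors known to drive ciliary genes, Rfx2 was at 29.1 and 42.3 CPM in DSg and 296 and 271 CPM in Spc (log2 fold change 2.98 ± 0.28 (SE), edgeR adjusted p = 0.000164). Rfx3 was at 18.5 and 19.6 CPM in DSg and 9.303 and 12.2 CPM in Spc (edgeR adjusted p = 0.104). Foxj1, the master factor of motile cilia, was at 2.11 and 4.604 CPM in DSg and 3.64 and 1.802 CPM in Spc (edgeR adjusted p = 0.751). Neither was called.

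RFX proteins bind the X-box, which holds the letters GTTGCC, and the promoters of 3 of these genes are shown for that reason. They come from the RefSeq table of rat promoters (GRCr8, 9523 of the 11792 tested genes matched), 250 bases before the start of each gene, 5′ to 3′, with GTTGCC or its reverse complement in capitals.
Drc1 (chr6:31779257-31779506, minus strand): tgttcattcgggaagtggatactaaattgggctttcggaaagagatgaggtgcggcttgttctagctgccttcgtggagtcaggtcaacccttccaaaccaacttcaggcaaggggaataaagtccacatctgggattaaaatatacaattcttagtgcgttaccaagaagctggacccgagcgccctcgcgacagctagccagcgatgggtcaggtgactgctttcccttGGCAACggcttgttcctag
Dync2li1 (chr6:15778167-15778416, minus strand): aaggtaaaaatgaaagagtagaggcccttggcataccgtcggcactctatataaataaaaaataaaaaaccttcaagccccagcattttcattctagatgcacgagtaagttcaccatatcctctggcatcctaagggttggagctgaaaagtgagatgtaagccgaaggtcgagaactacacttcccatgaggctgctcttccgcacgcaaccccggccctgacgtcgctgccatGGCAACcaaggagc
Rfx2 (chr9:1758147-1758396, minus strand): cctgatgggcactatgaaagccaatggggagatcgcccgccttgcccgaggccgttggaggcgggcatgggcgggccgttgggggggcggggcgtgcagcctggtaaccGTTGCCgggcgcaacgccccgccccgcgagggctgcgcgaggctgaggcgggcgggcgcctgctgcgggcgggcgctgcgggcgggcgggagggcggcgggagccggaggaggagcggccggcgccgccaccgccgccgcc
The motif ended 13 bases before the start in Drc1, 8 before it in Dync2li1 and 135 before it in Rfx2. Counted on both strands over the 300 bases from 250 before to 50 after each start, GTTGCC was in 12.2% of all 33469 promoters and 13.5% of those of tested genes. It was in 15.1% of the genes higher in Spc and 11.9% of those lower. Within the lists it was in 15 of 44 axoneme promoters (34.1%) and 15 of 28 promoters of intraflagellar transport genes (53.6%), of which 13 and 9 belonged to genes higher in Spc. A match of 6 letters is a description, not a binding site. In all 8 motifs were searched, each in a fixed form. The sterol regulatory element was in 0 of 20 promoters of cholesterol synthesis genes. The cAMP response element was in 2.56% of genes higher in Spc and 2.90% of those lower, against 3.29% of those tested. CCAATC was in 20.5%, 19.5% and 19.8%, in the same order. A longer part of the X-box was in 1.4%, 0.23% and 0.81%.

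Small RNA and RNA-binding genes were called in both directions. In the piRNA list, whose proteins make and use the small RNAs that silence transposons, 9 of 24 genes were higher and 5 lower (9 and 8 without DSg 2, 7 and 2 without Spc 1, 6 and 3 without Spc 2 and 8 and 8 with total-count scaling), with a median of 0.07 (0.51 without DSg 1). Piwil1, the PIWI protein of pachytene cells, was at 26.1 and 31.1 CPM in DSg and 622 and 600.4 CPM in Spc (log2 fold change 4.41 ± 0.26 (SE), edgeR adjusted p = 3.77e-05). Piwil4, the PIWI protein of fetal germ cells and early spermatogonia, was at 139 and 110.5 CPM in DSg and 8.29 and 9.01 CPM in Spc (log2 fold change -3.84 ± 0.30 (SE), edgeR adjusted p = 7.22e-05). Piwil2 lay between, at 164 and 113 CPM in DSg and 472 and 577 CPM in Spc (1.92 ± 0.27). The direction thus differed between members of the PIWI family, with no overlap between groups for any of them, as for every called gene. Tdrd6, a Tudor protein of the chromatoid body, was at 8.43 and 17.3 CPM in DSg and 442 and 489 CPM in Spc (5.14 ± 0.36), whereas Fkbp6 (95% interval -0.85 to 0.18) and Gpat2 (95% interval -0.77 to 0.46) were not called. Of 30 RNA-binding proteins of germ cells, 8 were higher and 11 lower (13 and 9 without DSg 1, 4 and 5 without Spc 1, 4 and 5 without Spc 2, 6 and 5 in a fit of 6 libraries and 9 and 6 with no filter). Ptbp2, a splicing factor, was at 80.1 and 38.8 CPM in DSg and 259.9 and 299 CPM in Spc (2.24 ± 0.35). Igf2bp1, an oncofetal binder of messenger RNA, was at 222 and 168 CPM in DSg and 51.8 and 37.4 CPM in Spc (-2.12 ± 0.29). Msi1 was at 78.8 and 42.6 CPM in DSg and 16.8 and 15.996 CPM in Spc (-1.88 ± 0.36). Dnd1, a partner of NANOS proteins, was at 39.6 and 73.4 CPM in DSg and 12.7 and 10.6 CPM in Spc (-2.28 ± 0.37).

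A-MYB is known to drive pachytene genes, among them those for piRNA precursors, and its core motif CAGTTG stands in the promoter of Piwil1, shown with the motif in capitals, 66 bases before the start.
Piwil1 (chr12:33606584-33606833, minus strand): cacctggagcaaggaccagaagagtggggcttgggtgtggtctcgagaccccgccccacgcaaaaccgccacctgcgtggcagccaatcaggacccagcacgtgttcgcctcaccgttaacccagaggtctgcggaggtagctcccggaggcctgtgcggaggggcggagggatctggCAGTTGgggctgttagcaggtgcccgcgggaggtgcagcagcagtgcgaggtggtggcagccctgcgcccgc
CAGTTG, on either strand, was in 13.9% of all promoters and 11.2% of those of tested genes, in 14.1% of genes higher in Spc and in 8.86% of those lower. It can overlap with the RFX letters, since CAGTTG followed by CC holds both. Among the 28 pachytene genes with a promoter it was in 2, Piwil1 and Ldhc, or 7.14%.

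Genes of retinoic acid signalling were called in both directions. Cyp26a1, the enzyme that destroys retinoic acid and whose own gene is switched on by it, was at 116 and 86.04 CPM in DSg and 2.22 and 1.58 CPM in Spc (log2 fold change -5.69 ± 0.38 (SE), edgeR adjusted p = 5.18e-05). Rarb, a retinoic acid receptor and a direct target, was at 56.5 and 35.4 CPM in DSg and 1.42 and 3.605 CPM in Spc (log2 fold change -4.19 ± 0.49 (SE), edgeR adjusted p = 0.000467). Of the receptors, Rxra was at 32.03 and 40.3 CPM in DSg and 9.101 and 8.11 CPM in Spc (-2.07 ± 0.33). Rara was at 128 and 101 CPM in DSg and 49.7 and 53.6 CPM in Spc (-1.15 ± 0.26, lost without Spc 1 (adjusted p = 0.368) and without Spc 2 (0.282)), while Rarg was not called (95% interval -0.82 to 0.45). Crabp1, which carries retinoic acid in the cell, was at 165 and 219.9 CPM in DSg and 49.1 and 30.9 CPM in Spc (-2.26 ± 0.31). Genes of 2 enzymes that make retinoic acid were higher in Spc. Aldh1a1 was at 1.26 and 4.32 CPM in DSg and 84.9 and 103 CPM in Spc (log2 fold change 4.95 ± 0.45 (SE), edgeR adjusted p = 0.000141). Aldh1a2 was at 43.8 and 26.5 CPM in DSg and 152 and 152 CPM in Spc (2.12 ± 0.31). Aldh1a1 is also made by Sertoli cells, whose marker list was higher in Spc (above). Tgm2, a transglutaminase that responds to retinoic acid in many cells, was higher in Spc, at 10.1 and 13.2 CPM in DSg and 1207 and 1073 CPM in Spc (6.59 ± 0.31). In the list of the retinoic acid and neuregulin response, 7 of 14 genes were lower (50.0%) and 2 higher, with a median of -1.45 (-0.61 without DSg 2). In the wider list of regulators of meiotic entry and differentiation 5 of 21 were higher and 9 lower.

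The known retinoic acid response element is a pair of direct repeats 5 bases apart. Only a fixed form of it was searched, GTTCA and AGTTCA with any 5 bases between. Other forms of the element were not searched, so the count does not single out these genes among targets of retinoic acid. This form was in 2 of the 9523 promoters of tested genes (0.0210%), against 0.0269% of all promoters, and these were Cyp26a1 and Rarb. For that reason both are shown, with the element in capitals: 250 bases before the start for Cyp26a1, where the element ends 76 bases before the start, and the site alone for Rarb, which lies just after its start.
Cyp26a1 (chr1:244883572-244883821, plus strand): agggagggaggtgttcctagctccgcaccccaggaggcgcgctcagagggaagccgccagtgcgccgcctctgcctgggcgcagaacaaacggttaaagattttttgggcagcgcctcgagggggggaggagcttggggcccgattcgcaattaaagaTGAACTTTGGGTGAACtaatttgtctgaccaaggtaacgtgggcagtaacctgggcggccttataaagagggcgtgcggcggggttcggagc
Rarb (chr15:11336410-11336439, plus strand): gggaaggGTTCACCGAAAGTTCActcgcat
In Cyp26a1 the element is the reverse complement of the letters searched, and in Rarb as written. Both genes were lower in Spc. The labels name no retinoic acid for the Spc medium, but source, serum, selection and stage differed too and cannot be told apart. The part of retinoic acid in these levels was not tested.

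Of the ERBB receptor genes 2 were lower in Spc, 1 was higher and 1 was not called. Erbb3, a receptor that binds neuregulin, was at 64.9 and 104 CPM in DSg and 12.1 and 11.3 CPM in Spc (log2 fold change -2.85 ± 0.34 (SE), edgeR adjusted p = 0.000454), and its signalling partner Erbb2 at 62.8 and 78.3 CPM in DSg and 9.91 and 9.91 CPM in Spc (-2.83 ± 0.30). Egfr, of the same family, was higher, at 20.2 and 14.4 CPM in DSg and 76.2 and 76.4 CPM in Spc (2.15 ± 0.30). Erbb4 was not called (95% interval -1.22 to 0.81).

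Most genes that mark spermatogonia were lower in Spc, against 18.5% of all genes. Of 27 tested genes of undifferentiated spermatogonia 16 (59.3%) were lower and 2 higher (4 and 22 without DSg 1 and 2 and 10 without Spc 1), with a median of -2.07. Rhox10, a homeobox gene of stem spermatogonia, was at 43.8 and 27.9 CPM in DSg and 2.83 and 2.25 CPM in Spc (log2 fold change -3.79 ± 0.43 (SE), edgeR adjusted p = 0.000392). Gfra1, the GDNF receptor of stem cells, was at 27.4 and 18.1 CPM in DSg and 4.04 and 5.18 CPM in Spc (-2.29 ± 0.43). Ret, its signalling partner, was at 118 and 91.5 CPM in DSg and 23.7 and 23.2 CPM in Spc (-2.16 ± 0.28). Etv5, a target of that pathway, was at 108 and 96.1 CPM in DSg and 24.5 and 22.8 CPM in Spc (-2.11 ± 0.27). All were measurable in DSg. Id4, an inhibitor of differentiation in stem spermatogonia, was higher in Spc, at 20.7 and 14.1 CPM in DSg and 143 and 122 CPM in Spc (log2 fold change 2.94 ± 0.31 (SE), edgeR adjusted p = 0.000274), as were Id1, Id2 and Id3, with Id2 at 5.901 and 2.302 CPM in DSg and 95.5 and 93.3 CPM in Spc (4.59 ± 0.42). Of 17 tested genes of differentiating spermatogonia 10 (58.8%) were lower and 1 higher (3 and 10 without DSg 1, 2 and 11 without DSg 2, 0 and 6 without Spc 1 and 0 and 5 without Spc 2). Dnmt3b, a DNA methyltransferase, was at 153 and 260.1 CPM in DSg and 35.8 and 48.9 CPM in Spc (-2.29 ± 0.33). Sohlh1, a transcription factor of differentiation, was at 56.5 and 84.9 CPM in DSg and 10.1 and 12.4 CPM in Spc (-2.65 ± 0.33). Lmo1 was at 41.3 and 42.3 CPM in DSg and 5.66 and 5.41 CPM in Spc (-2.91 ± 0.33). Mki67, a marker of cycling cells, was at 1331 and 1343 CPM in DSg and 992 and 1204 CPM in Spc and was not called (95% interval -0.83 to 0.26).

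Genes of GDNF and FGF signalling were split, 8 of 28 higher and 10 lower. Spred2, a brake on RAS signalling, was at 133 and 97.8 CPM in DSg and 10.5 and 11.3 CPM in Spc (log2 fold change -3.40 ± 0.31 (SE), edgeR adjusted p = 0.000133). Etv4 was at 88.1 and 135 CPM in DSg and 24.7 and 18.7 CPM in Spc (-2.36 ± 0.32). Fgfr3 was at 45.9 and 40.9 CPM in DSg and 8.898 and 8.56 CPM in Spc (-2.31 ± 0.31). Dusp5, a phosphatase of ERK, was higher, at 27.8 and 25.04 CPM in DSg and 84.1 and 90.3 CPM in Spc (1.72 ± 0.27). Immediate early and stress genes, which answer growth factors and cell handling within minutes, were largely higher in Spc, 28 of 39 (71.8%) with 1 lower, and a median of 1.91 (33 and 2 without DSg 1, 20 and 0 without Spc 1 and 23 and 0 without Spc 2). Fos was at 17.7 and 17.6 CPM in DSg and 225 and 192 CPM in Spc (log2 fold change 3.56 ± 0.27 (SE), edgeR adjusted p = 6.73e-05). Nr4a1 was at 5.06 and 6.33 CPM in DSg and 338 and 252 CPM in Spc (5.67 ± 0.34). Dusp1 was at 6.32 and 5.76 CPM in DSg and 193 and 187 CPM in Spc (4.98 ± 0.30). Ier3 was at 10.1 and 4.32 CPM in DSg and 584 and 453 CPM in Spc (6.22 ± 0.42). The Spc cells were cultured in serum, and the part of serum or of the isolation was not tested. The lower gene, Bax, which promotes cell death, was at 30.3 and 28.5 CPM in DSg and 14.2 and 11.7 CPM in Spc, a call lost without Spc 1 (adjusted p = 0.218), without Spc 2 (0.372), with counts thinned to the smallest library (0.0581) and in a fit of 6 libraries (0.102).

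Testis isoforms of energy enzymes were mostly higher in Spc. Of 24 tested testis isoforms and their partners, 15 (62.5%) were higher and 2 lower (12 and 0 without Spc 1 and 14 and 0 without Spc 2), with a median of 2.09. Pgk2, the phosphoglycerate kinase of sperm, was at 0.422 and 2.88 CPM in DSg and 41.3 and 40.6 CPM in Spc (log2 fold change 4.46 ± 0.55 (SE), edgeR adjusted p = 0.000551). Gk2, a testis glycerol kinase, was at 2.11 and 5.47 CPM in DSg and 219 and 273 CPM in Spc (5.93 ± 0.41). Cox8c, a testis subunit of cytochrome oxidase, was at 1.69 and 5.18 CPM in DSg and 236 and 614 CPM in Spc (6.84 ± 0.63), with a wide gap between the Spc libraries. Cyct, the testis cytochrome c, was at 56.1 and 43.7 CPM in DSg and 461 and 462 CPM in Spc (3.21 ± 0.26). In glycolysis 12 of 27 genes were higher and 5 lower (12 and 0 without Spc 1 and 13 and 0 without Spc 2). Pfkp, a phosphofructokinase, was at 14.8 and 14.7 CPM in DSg and 135 and 135 CPM in Spc (log2 fold change 3.20 ± 0.28 (SE), edgeR adjusted p = 0.000112). Aldoa was at 266 and 254 CPM in DSg and 799 and 809 CPM in Spc (1.63 ± 0.23). Slc16a3, an exporter of lactate, was at 1.69 and 4.604 CPM in DSg and 50.2 and 29.96 CPM in Spc (3.58 ± 0.50). Hif1a, which turns on glycolytic genes, was at 196 and 129 CPM in DSg and 924 and 1072 CPM in Spc (2.62 ± 0.29). Hk2 was lower, at 220.4 and 357 CPM in DSg and 96.7 and 92.4 CPM in Spc (-1.61 ± 0.29), a call lost without Spc 1 (adjusted p = 0.0672) and without Spc 2 (0.0818). Hk1 was higher, at 63.2 and 66.8 CPM in DSg and 179 and 154 CPM in Spc (1.36 ± 0.24), a call lost without Spc 1 (adjusted p = 0.0927). Ldha and Gapdh have many near-copies in the genome, so their counts are uncertain.

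In the citrate cycle and the respiratory chain the shares of calls were near those of all genes or below them. For pyruvate oxidation and the citrate cycle the counts were 7 higher and 5 lower of 30 (13 and 4 without DSg 1, 9 and 13 without DSg 2, 2 and 1 without Spc 1, 2 and 0 without Spc 2, 5 and 8 with total-count scaling, 6 and 8 with upper quartile factors and 3 and 3 in a fit of 6 libraries), with a median of -0.09 (0.29 without DSg 1 and -0.30 without DSg 2). Idh2, an isocitrate dehydrogenase of mitochondria, was at 3.79 and 5.76 CPM in DSg and 30.9 and 38.5 CPM in Spc (log2 fold change 2.82 ± 0.39 (SE), edgeR adjusted p = 0.000922). Sdha was at 259 and 207 CPM in DSg and 192 and 218 CPM in Spc (95% interval -0.73 to 0.36). For the respiratory chain, 15 of 63 subunits were higher (23.8%, near the 20.7% of all genes) and 1 lower, a count that hung on single libraries (41 and 1 without DSg 1, 22 and 12 without DSg 2, 4 and 0 without Spc 1 and 9 and 0 without Spc 2). Cox6c was the clearest, at 279 and 311 CPM in DSg and 1132 and 1030.3 CPM in Spc (1.87 ± 0.23, edgeR adjusted p = 0.000614).

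The genes Gclc, Gclm and Gss, whose products make glutathione, the main thiol of the cell, were not called. Gclc, the catalytic part of the first enzyme, was at 293 and 251 CPM in DSg and 277 and 335 CPM in Spc (log2 fold change 0.17 ± 0.24 (SE), 95% interval -0.36 to 0.71, edgeR adjusted p = 0.59). Its partner Gclm was at 99.1 and 52.95 CPM in DSg and 54.2 and 59.7 CPM in Spc (95% interval -1.17 to 0.35). Gss, the second enzyme, was at 42.99 and 31.1 CPM in DSg and 38.02 and 38.1 CPM in Spc (95% interval -0.62 to 0.71). Gsr, which reduces oxidized glutathione, was at 62.8 and 66.5 CPM in DSg and 42.3 and 38.98 CPM in Spc (95% interval -1.26 to -0.08). With other settings Gclc was called without DSg 1 (adjusted p = 0.0318), Gclm called without DSg 2 (adjusted p = 0.00292) and Gsr called without DSg 1 (adjusted p = 0.0372), without DSg 2 (0.0239), with a filter of 5 CPM (0.0457), with total-count scaling (0.0241) and with upper quartile factors (0.0307). The intervals of Gclc and Gss leave out a change of 2-fold, and those of Gclm and Gsr do not. Slc7a11, which imports cystine, was higher in Spc, at 3.79 and 11.5 CPM in DSg and 55.8 and 55.4 CPM in Spc (log2 fold change 2.80 ± 0.45 (SE), edgeR adjusted p = 0.00192), as was its chaperone Slc3a2, at 129 and 132 CPM in DSg and 317 and 307 CPM in Spc (1.25 ± 0.22), a call lost without Spc 1 (adjusted p = 0.0702) and without Spc 2 (0.0586). Txn1, the thioredoxin of the cytosol, was at 16.9 and 17.8 CPM in DSg and 100.1 and 88.8 CPM in Spc (2.44 ± 0.28). In all 9 of 28 genes of this list were higher and 6 lower (7 and 1 without Spc 1 and 6 and 1 without Spc 2), with a median of -0.14 (0.30 without DSg 1).

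Among enzymes that use glutathione, more genes were called higher than lower. Of 37 transferases, peroxidases and related enzymes 19 (51.4%) were higher and 2 lower (25 and 4 without DSg 1, 20 and 6 without DSg 2, 15 and 1 without Spc 1 and 14 and 0 without Spc 2), with a median of 1.07. Gstp1 was at 1.26 and 3.74 CPM in DSg and 200.01 and 158 CPM in Spc (log2 fold change 6.05 ± 0.44 (SE), edgeR adjusted p = 5.97e-05). Gstm2 was at 1.26 and 3.17 CPM in DSg and 92.6 and 89.4 CPM in Spc (5.26 ± 0.41). Mgst1, a membrane form, was at 8.85 and 4.89 CPM in DSg and 153 and 168 CPM in Spc (4.58 ± 0.36). Gstt3 was at 21.9 and 17.8 CPM in DSg and 339.9 and 399 CPM in Spc (4.22 ± 0.28). Members of the GSTM family are close copies, so the split of counts among them is uncertain. Sod2, the superoxide dismutase of mitochondria, was at 58.6 and 52.95 CPM in DSg and 387 and 321 CPM in Spc (2.67 ± 0.25), while Cat, catalase, was not called (95% interval -1.07 to 0.18). Several of these genes are also strong in Sertoli cells, whose markers were higher in Spc, and that part was not tested.

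In the pentose phosphate pathway, which supplies NADPH and ribose, 5 of 20 genes were higher and 3 lower (8 and 3 without DSg 1, 5 and 7 without DSg 2, 4 and 0 without Spc 1, 4 and 0 without Spc 2, 4 and 6 with total-count scaling and 5 and 6 with upper quartile factors). Tkt, transketolase, was at 31.2 and 18.4 CPM in DSg and 146 and 170.3 CPM in Spc (log2 fold change 2.69 ± 0.32 (SE), edgeR adjusted p = 0.000511). Pgd, an oxidative enzyme of the pathway, was at 114 and 125 CPM in DSg and 141 and 112 CPM in Spc (95% interval -0.48 to 0.64). Taldo1, transaldolase, was lower, at 129 and 174 CPM in DSg and 63.3 and 70.3 CPM in Spc (-1.18 ± 0.26), a call lost without Spc 1 (adjusted p = 0.354), without Spc 2 (0.245) and in a fit of 6 libraries (0.0667). In the list for the methionine cycle and transsulfuration, the route from methionine to cysteine, 9 of 23 genes were lower and 3 higher (6 and 11 without DSg 1, 1 and 0 without Spc 1 and 1 and 1 without Spc 2), with a median of -0.74 (-0.33 without DSg 1). Cbs, which starts transsulfuration, was at 8.01 and 12.7 CPM in DSg and 1.01 and 1.802 CPM in Spc (log2 fold change -2.87 ± 0.66 (SE), edgeR adjusted p = 0.00994). Cth, which ends it, was at 10.96 and 12.7 CPM in DSg and 4.04 and 4.73 CPM in Spc (-1.43 ± 0.49, edgeR adjusted p = 0.0495). The call of Cbs was lost without Spc 1 (adjusted p = 0.225) and without Spc 2 (0.105). The call of Cth was lost without Spc 1 (adjusted p = 0.513), without Spc 2 (0.404), with DESeq2 (0.113), with counts thinned to the smallest library (0.125), in a fit of 6 libraries (0.0824), with no filter (0.0692) and with the replicate block (0.0868). Ahcy was at 137 and 178 CPM in DSg and 38.4 and 45.5 CPM in Spc (-1.91 ± 0.27), a call lost without Spc 1 (adjusted p = 0.0607). In the list for serine, glycine and folate 5 of 23 genes were lower and 0 higher (0 with DESeq2, 0 with limma-voom and 0 at an unadjusted p under 0.05; 2 and 9 without DSg 1, 1 and 8 without DSg 2, 0 and 2 without Spc 1 and 0 and 2 without Spc 2). The lower share of this list, 21.7%, was near the 18.5% of all genes. Tyms, which makes thymidylate, was at 169 and 134 CPM in DSg and 26.3 and 30.6 CPM in Spc (log2 fold change -2.41 ± 0.28 (SE), edgeR adjusted p = 0.000404). Phgdh, the first enzyme of serine synthesis, was at 51.8 and 49.2 CPM in DSg and 50.2 and 48.2 CPM in Spc (95% interval -0.63 to 0.55).

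No gene of cholesterol synthesis was higher in Spc, and 16 of 28 (57.1%) were lower, with a median of -0.94 (2 and 17 without DSg 2, 0 and 4 without Spc 1 and 0 and 4 without Spc 2). Higher genes numbered 0 with DESeq2, 0 with limma-voom and 0 at an unadjusted p under 0.05. Stard4, a cholesterol carrier, was at 64.1 and 54.96 CPM in DSg and 10.3 and 9.91 CPM in Spc (log2 fold change -2.55 ± 0.30 (SE), edgeR adjusted p = 0.000453). Dhcr7, the last enzyme of the pathway, was at 91.05 and 153 CPM in DSg and 28.9 and 29.96 CPM in Spc (-2.06 ± 0.32). Hsd17b7 was at 87.3 and 48.3 CPM in DSg and 14.6 and 18.02 CPM in Spc (-2.05 ± 0.36). Nsdhl was at 76.3 and 46.9 CPM in DSg and 17.6 and 14.9 CPM in Spc (-1.91 ± 0.34). These 4 kept their calls with each library left out. Srebf2, the transcription factor of the pathway, was at 344 and 342 CPM in DSg and 171 and 126 CPM in Spc (-1.20 ± 0.25), a call lost without Spc 1 (adjusted p = 0.112) and without Spc 2 (0.352). Serum brings cholesterol to cells, and the Spc medium held serum, so medium and stage cannot be told apart here.

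Of 51 replication genes 19 (37.3%) were lower in Spc and 2 higher, with a median of -0.60 (-0.25 without DSg 1). The number of calls moved with single libraries (6 and 19 without DSg 1, 3 and 32 without DSg 2, 0 and 4 without Spc 1 and 0 and 5 without Spc 2). Mcm2, of the replicative helicase, was at 372 and 405 CPM in DSg and 114 and 97.1 CPM in Spc (log2 fold change -1.88 ± 0.24 (SE), edgeR adjusted p = 0.000614). Rrm2, of ribonucleotide reductase, was at 16.4 and 14.4 CPM in DSg and 2.02 and 1.802 CPM in Spc (-2.98 ± 0.53), whereas Top2a (95% interval -0.26 to 0.79) was not called. Among cell cycle regulators 12 of 54 were higher and 15 lower (5 and 5 without Spc 1 and 6 and 7 without Spc 2). The higher share of the regulators, 22.2%, was near the 20.7% of all genes, and 27.8% were lower, against 18.5%. Ccnd1, the cyclin of the G1 phase, was at 148 and 84.9 CPM in DSg and 22.2 and 18.2 CPM in Spc (log2 fold change -2.51 ± 0.34 (SE), edgeR adjusted p = 0.00093). Cdk6, its kinase, was at 76.3 and 96.98 CPM in DSg and 14.2 and 19.4 CPM in Spc (-2.37 ± 0.31). Ccnb1, the mitotic cyclin, was at 306 and 185 CPM in DSg and 65.3 and 68.9 CPM in Spc (-1.87 ± 0.30). Ccne2, a cyclin of the step into S phase, was higher, at 159 and 119 CPM in DSg and 487 and 505 CPM in Spc (1.84 ± 0.25), and so was Pkmyt1, which holds CDK1 in check, at 0.843 and 8.06 CPM in DSg and 104 and 87.9 CPM in Spc (4.29 ± 0.59).

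Chromatin genes were called in both directions, 10 of 48 higher and 16 lower (20 and 18 without DSg 1, 5 and 3 without Spc 1 and 5 and 5 without Spc 2). The higher share, 20.8%, was near the 20.7% of all genes, and 33.3% were lower, against 18.5%. Dnmt1, which copies DNA methylation after replication, was at 939.98 and 1015 CPM in DSg and 245 and 268 CPM in Spc (log2 fold change -1.93 ± 0.23 (SE), edgeR adjusted p = 0.00051). Kdm1b, a histone demethylase, was at 203 and 144 CPM in DSg and 46.7 and 40.8 CPM in Spc (-1.98 ± 0.28). Phf7, a testis reader of histone marks, was at 17.3 and 14.4 CPM in DSg and 388 and 426 CPM in Spc (log2 fold change 4.69 ± 0.28 (SE), edgeR adjusted p = 3.65e-05). Mdc1, a DNA damage adaptor that acts at the sex chromosomes in pachytene cells, was at 94.8 and 117 CPM in DSg and 529 and 531 CPM in Spc (2.32 ± 0.24). Among histones 7 of 29 were higher and 4 lower (17 and 4 without DSg 1, 9 and 8 without DSg 2, 5 and 1 without Spc 1, 7 and 2 without Spc 2, 5 and 6 with total-count scaling and 5 and 6 with upper quartile factors). The histone shares, 24.1% and 13.8%, were near those of all genes. Hist1h2ba, a testis histone, was at 494 and 307 CPM in DSg and 2201 and 1132 CPM in Spc (2.06 ± 0.38). H3f3b, of the replacement histone, was at 400.4 and 385 CPM in DSg and 973 and 864 CPM in Spc (1.23 ± 0.23). Replication histones lack poly(A) tails and have close copies, so their levels are uncertain.

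Pachytene spermatocytes are known to silence most of the X chromosome. Of 347 tested X-linked genes 63 (18.2%) were higher in Spc and 95 (27.4%) lower, with a median log2 fold change of -0.27 (-0.06 without DSg 1). On the autosomes 2330 of 11267 (20.7%) were higher and 2065 (18.3%) lower, with a median of -0.02. The X-linked counts were 111 and 115 without DSg 1, 96 and 132 without DSg 2, 39 and 29 without Spc 1 and 37 and 32 without Spc 2. The autosomal shares moved with the library left out as well. Without DSg 1 the share of lower genes was about the same on the X chromosome and the autosomes. Without any of the other libraries it was larger on the X chromosome. Pgk1, an X-linked gene of glycolysis, was higher in Spc, at 37.1 and 25.04 CPM in DSg and 86.6 and 86.7 CPM in Spc (1.49 ± 0.29). Taf7l, an X-linked germ cell gene of the transcription machinery, was lower, at 1662 and 909.6 CPM in DSg and 378 and 451 CPM in Spc (log2 fold change -1.63 ± 0.32 (SE), edgeR adjusted p = 0.00503). The share of the X-linked RNA that comes from other cells was not tested.

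Many genes have a relative that is used mainly in germ cells or that lies on an autosome. In 21 such pairs with both members tested, the germ cell or autosomal form had the higher fold change in 18, and 15 of these forms were higher in Spc and 1 lower, against 9 higher and 3 lower for the general forms. In the longer list of such X-linked and autosomal genes, paired or not, 17 of 43 were higher and 9 lower (13 and 1 without Spc 1 and 10 and 1 without Spc 2). The pairs were chosen by hand and their differences were not tested one by one. Psma8, a testis subunit of the proteasome, was at 4.22 and 5.47 CPM in DSg and 141 and 137 CPM in Spc (log2 fold change 4.81 ± 0.32 (SE), edgeR adjusted p = 5.19e-05), while its relative Psma7 was at 255 and 169.8 CPM in DSg and 183 and 173 CPM in Spc (95% interval -0.86 to 0.35; called without DSg 2 (adjusted p = 0.0185)). Cct6b, a chaperonin subunit of the testis, was at 7.17 and 6.91 CPM in DSg and 48.9 and 40.3 CPM in Spc (2.66 ± 0.33). Cct6a was at 325 and 155 CPM in DSg and 93.03 and 85.6 CPM in Spc (-1.42 ± 0.35), a call lost without Spc 1 (adjusted p = 0.114) and without Spc 2 (0.155). Aurkc, the meiotic Aurora kinase, was at 5.48 and 8.35 CPM in DSg and 43.3 and 39.4 CPM in Spc (2.55 ± 0.35). Its mitotic relative Aurkb was at 137 and 111 CPM in DSg and 38.6 and 45.1 CPM in Spc (-1.57 ± 0.27), a call lost without Spc 1 (adjusted p = 0.161) and without Spc 2 (0.084). Gk2 and Gk, a glycerol kinase on the X chromosome, differed most: Gk was at 14.8 and 14.7 CPM in DSg and 10.9 and 13.5 CPM in Spc (95% interval -1.12 to 0.58). The exceptions to the pattern were Calr3, Tbpl1 and Pdha2. Calr3, a calreticulin of the testis, was at 29.9 and 28.8 CPM in DSg and 10.5 and 12.2 CPM in Spc (-1.37 ± 0.32), a call lost without Spc 1 (adjusted p = 0.249) and without Spc 2 (0.141).

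**Figure D4:**
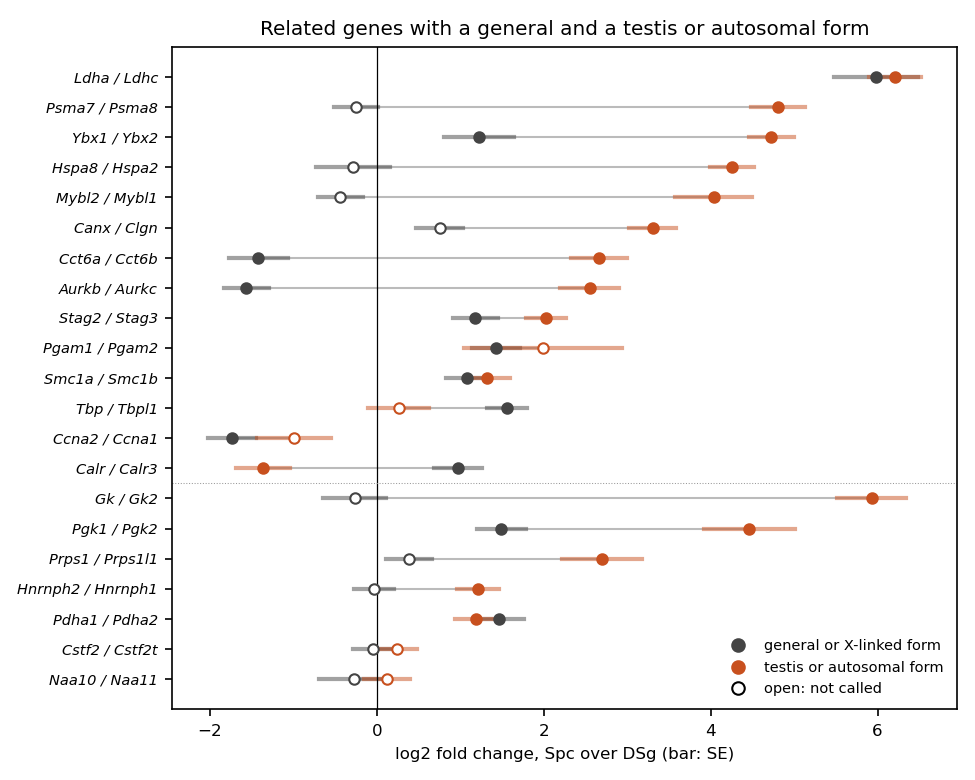
Fitted log2 fold change of Spc over DSg (horizontal axis, bars show the SE) for 21 pairs of related genes (vertical axis), the general or X-linked form in grey and the testis or autosomal form in orange, with open circles for genes not called. The 7 pairs below the dotted line set an X-linked gene against an autosomal relative. The orange point lies to the right of the grey point in 18 of the 21 pairs.

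The numbers of calls among protein synthesis genes moved with single libraries. Of 61 ribosomal protein genes 20 were higher and 1 lower (42 and 0 without DSg 1, 27 and 9 without DSg 2, 7 and 1 without Spc 1 and 10 and 1 without Spc 2), with a median of 0.68 (0.43 without DSg 2). These genes have many near-copies, so their values are uncertain. Among translation factors 12 of 54 were higher and 8 lower (27 and 10 without DSg 1, 13 and 18 without DSg 2, 2 and 3 without Spc 1, 2 and 2 without Spc 2, 6 and 14 with total-count scaling and 8 and 12 with upper quartile factors). The shares of translation factors, 22.2% and 14.8%, were near the 20.7% and 18.5% of all genes. Eif2s2, a subunit of the factor that brings the first transfer RNA, was at 273 and 228 CPM in DSg and 1039.7 and 1169 CPM in Spc (log2 fold change 2.14 ± 0.24 (SE), edgeR adjusted p = 0.000402). Eef2k, which slows elongation, was at 167 and 164 CPM in DSg and 39.8 and 40.3 CPM in Spc (-2.04 ± 0.25). For ubiquitin and the proteasome 7 of 39 were higher and 1 lower (18 and 1 without DSg 1, 12 and 11 without DSg 2, 3 and 0 without Spc 1, 1 and 0 without Spc 2, 5 and 7 with total-count scaling and 6 and 6 with upper quartile factors). Of 51 heat shock proteins and chaperones 16 were higher and 10 lower (29 and 11 without DSg 1, 11 and 2 without Spc 1 and 12 and 4 without Spc 2). The higher share was 17.9% for ubiquitin and the proteasome and 31.4% for chaperones, against 20.7% of all genes. Hspb9, a small heat shock protein of the testis, was at 0.843 and 0.576 CPM in DSg and 51.4 and 42.6 CPM in Spc (log2 fold change 6.03 ± 0.48 (SE), edgeR adjusted p = 7.22e-05). Hspa4l was at 93.6 and 57.8 CPM in DSg and 528 and 598 CPM in Spc (2.90 ± 0.30). Hsph1, a heat-inducible partner of HSP70, was at 514 and 261 CPM in DSg and 62.3 and 66.5 CPM in Spc (-2.59 ± 0.35).

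Of 27 interferon-linked genes 13 (48.1%) were higher in Spc and 2 lower, with a median of 1.06 (17 and 5 without DSg 2, 12 and 0 without Spc 1 and 11 and 0 without Spc 2). B2m, the constant chain of MHC class I, was at 105 and 142 CPM in DSg and 6499 and 6394 CPM in Spc (log2 fold change 5.70 ± 0.32 (SE), edgeR adjusted p = 3.53e-05). The MHC class I genes RT1-A1, RT1-A2 and RT1-A3 of the same list were not called, nor were Psmb9, Bst2 and Oas1a. Irf7, a transcription factor of the interferon response, was at 1.26 and 6.33 CPM in DSg and 152 and 134 CPM in Spc (5.11 ± 0.50). Mx2 was at 1.26 and 5.18 CPM in DSg and 100.3 and 119 CPM in Spc (4.97 ± 0.48). Ifitm3, a membrane protein that blocks viral entry, was at 2.95 and 2.302 CPM in DSg and 655 and 514 CPM in Spc (7.81 ± 0.36). Stat2, a carrier of the interferon signal, was lower, at 193 and 161 CPM in DSg and 65.1 and 59.5 CPM in Spc, a call lost without Spc 1 (adjusted p = 0.106) and without Spc 2 (0.146). Irf1, a transcription factor, was at 146 and 103 CPM in DSg and 38.02 and 39.2 CPM in Spc, a call lost without Spc 1 (adjusted p = 0.0918) and without Spc 2 (0.076). Fibroblasts, Sertoli cells and leukocytes use these genes, and the part of such cells was not tested. The promoter of Irf7 is shown because it holds the interferon element searched (GAAA, any 2 bases, GAAAC, on either strand, in capitals), 59 bases before the start.
Irf7 (chr1:205800024-205800273, minus strand): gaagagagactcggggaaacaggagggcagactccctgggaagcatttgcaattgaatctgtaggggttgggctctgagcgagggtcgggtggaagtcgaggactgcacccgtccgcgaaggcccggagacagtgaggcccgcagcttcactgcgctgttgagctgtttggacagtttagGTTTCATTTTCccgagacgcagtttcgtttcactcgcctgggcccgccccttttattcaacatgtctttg
The element was in 0.881% of all promoters, 0.798% of those of tested genes, 1.59% of genes higher in Spc and 0.579% of those lower. In the interferon list it was in 7 of 22 promoters (31.8%), of which 5 belonged to genes higher in Spc.

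Imprinted genes were called both ways, 7 of 24 higher and 8 lower (3 and 4 without Spc 1, 2 and 4 without Spc 2, 7 and 6 with DESeq2 and 7 and 7 with no filter). H19, a noncoding RNA, was at 189.7 and 159 CPM in DSg and 14.4 and 15.1 CPM in Spc (log2 fold change -3.56 ± 0.28 (SE), edgeR adjusted p = 7.13e-05), and its neighbour Igf2, a growth factor, at 598 and 542 CPM in DSg and 83.9 and 118 CPM in Spc (-2.49 ± 0.26). Dlk1, of another imprinted cluster, was lower as well (above), while Dio3 of the same cluster was higher, at 0.843 and 5.18 CPM in DSg and 278 and 188 CPM in Spc (log2 fold change 6.13 ± 0.54 (SE), edgeR adjusted p = 0.000121). Meg3, also of that cluster, was not called (95% interval -0.65 to 1.08). Peg3 was at 74.6 and 73.4 CPM in DSg and 186 and 195 CPM in Spc (1.36 ± 0.23), a call lost without Spc 2 (adjusted p = 0.0645). The groups did not overlap for Dlk1, Dio3, H19 or Igf2, as for every called gene.

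**Figure D5:**
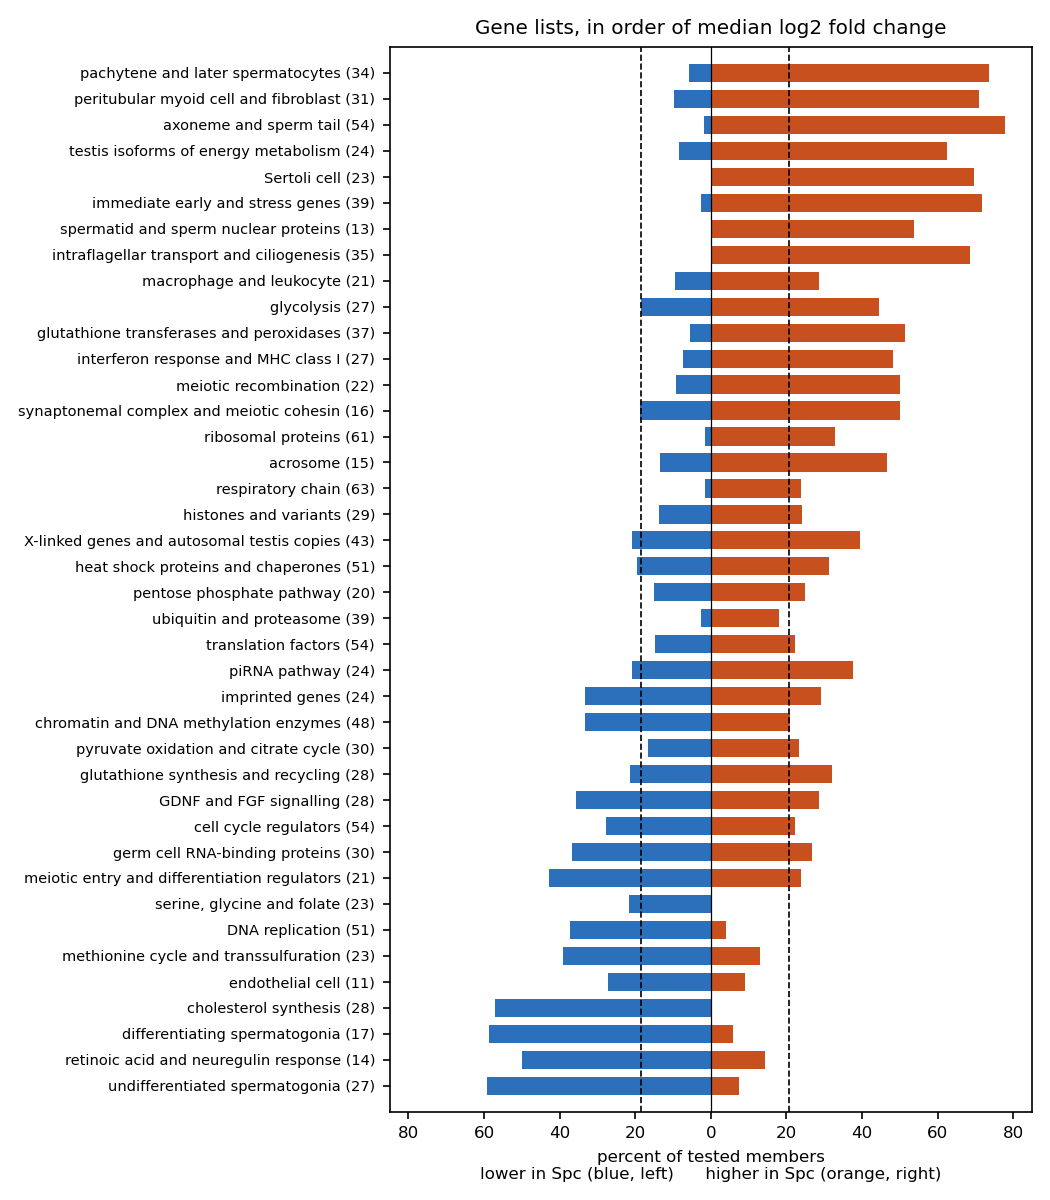
Share of tested members higher in Spc (orange, to the right) and lower in Spc (blue, to the left), in percent, for each gene list with at least 10 genes tested (number in parentheses), ordered by median log2 fold change. Dashed lines mark the 20.7% higher and 18.5% lower of all genes tested. The axoneme and tail list reaches 77.8% higher, and the list of undifferentiated spermatogonia 59.3% lower.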

How the data were processed

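The report rests on 4 RNA libraries of total RNA, DSg 1 and 2 and Spc 1 and 2, grouped by their titles. Raw read counts per gene symbol were deposited by the authors as a table of 6 libraries, without normalization. The submitters' processing notes name STAR 2.5.3a, Bowtie2 2.2.3, featureCounts of Subread 1.4.6, edgeR 3.2.4 and Picard 1.127 and the builds rn6 and rn5. Which step used which is not given in the sources used here, nor is the use of strand.

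From the counts Rn45s and Rn18s were left out, and genes were kept by filterByExpr (minimum count 10, minimum total 15). TMM factors, dispersions and a quasi-likelihood fit of the 4 libraries came from edgeR 4.0.16 (R 4.3.3), with Benjamini-Hochberg adjustment over 11792 genes and a threshold of 0.05. Levels are TMM-scaled CPM. Values after ± are SE on the log2 scale (n = 2 and 2). The code was tested on simulated data with known changes. Depth was from 2327326 to 5304178 counts.

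Members and lists were chosen with earlier results of these data known. By rule, the text names the 12 largest changes each way, up to 6 members of each list in its more frequent direction and 3 in the other, the pairs, the cell type markers and a fixed set. Aldoa, Cat, Catsperg1, Ccne2, Cyct, Dusp5, Erbb4, Etv5, Fkbp6, Foxj1, Gpat2, Gstt3, Hk1, Id1, Mdc1, Mx2, Odf2, Peg3, Phgdh, Rara, Rarg, Rec8, Ret, Rfx3, Sdha, Slc3a2, Sod2, Srebf2, Syce3 and Top2a were named outside the rule, after their values were seen. Alternatives were other scalings, filters, tools (DESeq2 1.42.0, limma-voom 3.58.1), a replicate block, a fit of 6 libraries, thinned counts and each library left out. The 2 libraries of undifferentiated spermatogonia entered only that 6-library fit. A few genes and 1 pair named by the rule are not reported here. Promoters were matched by symbol.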

Additional observations from a re-analysis of the deposited data

Results flagged for a closer look

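The ribosomal RNA genes Rn45s and Rn18s, which the comparison leaves out, took 12.4% of all counts in DSg 1. Their share was 0.0325% in DSg 2, 0.00368% in Spc 1 and 0.733% in Spc 2. With these genes kept, 2444 genes were higher and 2152 lower in Spc. The part of this share in the spread between the DSg libraries was not tested.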

How the results depend on the processing

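With each library left out in turn the count of genes higher in Spc ran from 1471 to 4294, and that of genes lower from 564 to 4083. Tested against a change of 2-fold with edgeR, 1201 were higher and 714 lower. The other settings kept both counts within 1.5 times: from 1788 to 2786 higher and from 1465 to 2855 lower. Of the 4625 calls, 2018 stood without Spc 1, 2083 without Spc 2, 4483 without DSg 1, 4486 without DSg 2 and 3231 in the fit of 6 libraries. Leaving out a DSg library leaves the spread of the Spc pair alone, the smaller one. The replicate numbers are shared by the groups, but deviations of same-numbered libraries did not go together (r = 0.0113 across 11792 genes, which are not independent). With 2 libraries a group this is 1 correlation, so it cannot tell whether same-numbered libraries were handled together. In this paragraph the genes named with values include a few cell type markers whose values are not printed, such as Vwf and Cdh5. The replicate block gave 2506 higher and 2033 lower, and of the called genes named with values only Cth lost its call with it. Of 175 called genes named with values, 148 kept the call in every setting other than the 2-fold test, 27 lost it in at least 1 setting, 22 of them without Spc 1 and 23 without Spc 2, and 25 lost it against a 2-fold change. In all 0 changed direction. Of the uncalled genes named with values 14 gained a call in at least 1 setting. With 2 residual degrees of freedom and 1 count worth up to 0.422 CPM, genes under a few CPM were not resolved.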

Other observations

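Most tested chemokine genes, chosen as a family after their values were seen, were higher in Spc. Of 12 tested genes of the Cxcl family 10 were higher, with a median log2 fold change of 3.27. Of 9 tested genes of the Ccl family 5 were higher, with a median of 3.29. Cxcl16, a chemokine with a membrane anchor, was at 1.69 and 6.33 CPM in DSg and 181 and 215 CPM in Spc (log2 fold change 5.52 ± 0.46 (SE), edgeR adjusted p = 9.59e-05). Cxcl1, which draws neutrophils, was at 0.422 and 2.59 CPM in DSg and 148 and 92.4 CPM in Spc (6.14 ± 0.55). Ccl7 was at 0.422 and 1.15 CPM in DSg and 162 and 153 CPM in Spc (7.48 ± 0.43). Cxcl12, the ligand of CXCR4, was at 9.27 and 14.4 CPM in DSg and 14.6 and 12.6 CPM in Spc and was not called (95% interval -0.74 to 1.11). Fibroblasts, Sertoli cells and leukocytes make chemokines, and the part of such cells was not tested.

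Members of the ADAM family, membrane proteins of which several act in sperm and egg binding, were called both ways, 6 of 13 tested higher and 4 lower. Adam3a, of the sperm surface, was at 2.53 and 6.33 CPM in DSg and 192 and 238 CPM in Spc (log2 fold change 5.52 ± 0.41 (SE), edgeR adjusted p = 6.28e-05). Adam5 was at 1.69 and 4.89 CPM in DSg and 132 and 135 CPM in Spc (5.24 ± 0.42). Adam32 was at 4.64 and 8.06 CPM in DSg and 133 and 164 CPM in Spc (4.50 ± 0.36). Adam2, the beta subunit of fertilin, was at 2.11 and 4.89 CPM in DSg and 58.04 and 68.7 CPM in Spc (4.10 ± 0.41). Adam10, a general sheddase, was lower, at 188 and 151 CPM in DSg and 67.7 and 75.9 CPM in Spc (-1.24 ± 0.25), a call lost without Spc 1 (adjusted p = 0.306), without Spc 2 (0.201) and in a fit of 6 libraries (0.0601). Adam17, another sheddase, was at 147 and 116 CPM in DSg and 128 and 129 CPM in Spc and was not called (95% interval -0.59 to 0.52). Of 168 tested zinc finger genes with the symbol Zfp, 22 were higher and 45 lower, with a median of -0.35. These families were chosen after their values were seen. Of all genes tested 20.7% were higher and 18.5% lower.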
